A study of Mus musculus with 54 samples.

Results

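The regions described here are the liver sites that were bound by the transcription factor TFE3 in mice with folliculin, with and without a virus that forces nuclear SREBP-1c into hepatocytes. They were chosen as every entry of 2 deposited peak lists, Control and Control+1c, and sites of the lists that overlapped by at least 1 bp were joined. This gave 14922 sites of the 50815 joined sites in all peak lists of the series. The Control list held 9647 sites, each 174 bp wide, and the Control+1c list held 10827 sites, each 166 bp wide. The question was whether forced nuclear SREBP-1c moves TFE3 on liver chromatin when folliculin is present.

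All mice of both lists carried floxed Flcn alleles (Flcn lox/lox) and kept folliculin, since none received Cre. Control mice were given the adeno-associated virus AAV8-TBG-GFP at 2.5e11 genome copies (GC). Control+1c mice were given AAV8-TBG-GFP at 1.5e11 GC with AAV8-ApoE/AAT-nSREBP-1c, which codes for HA-tagged nuclear SREBP-1c, at 1.0e11 GC. The GFP virus dose therefore differed between the groups along with the SREBP-1c virus, and the effects of both cannot be told apart. TBG and ApoE/AAT are promoters used to drive virus genes in hepatocytes. About a week after injection the mice ate an FPC diet for 9 days, and fed livers were taken. The labels list 3 TFE3 ChIP libraries and 1 input library for each group, 3 HA ChIP libraries of Control+1c, and 1 TFE3 ChIP library of a mouse labelled Tfe3KO (Cre virus, 2.5e11 GC) that served as background for both lists. The ages of the mice are not given in the sources used here. Other lists used for comparison came from LiFKO livers (Flcn lox/lox with AAV8-TBG-Cre, which deletes Flcn in hepatocytes) with and without the SREBP-1c virus on the FPC diet, and from chow-fed Control and LiFKO livers.

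TFE3 is a basic helix-loop-helix leucine zipper factor of the MiT/TFE family, which switches on genes of lysosomes and autophagy. Folliculin, with its partners FNIP1 and FNIP2, acts on the RagC and RagD GTPases at the lysosome, and this lets mTORC1 phosphorylate TFE3 and hold it in the cytoplasm. SREBP-1c is a factor of the same structural class that is cut free from membranes to enter the nucleus, where it drives genes of fatty acid synthesis. MiT/TFE factors prefer the E-box CACGTG, and SREBPs bind both E-boxes and sterol regulatory elements, so the 2 factors can meet at the same promoters.

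The library names in the file headers went against the labels for both TFE3 lists. In each, the pool of 3 libraries from which sites were called held a library named input and 2 named TFE3, and a library named TFE3 stood in the place of the input. The header of the HA list of Control+1c named 3 HA libraries over an input, and that of the LiFKO+1c list named 3 TFE3 libraries over an input, so neither showed this exchange. Of the Control sites 84.5% lay at a site of that LiFKO+1c list, and of the Control+1c sites 77.1% did. The LiFKO list of the FPC diet showed it too. The lists hold 1 pooled call per group and cannot be made again without the libraries in question. There is thus no replicate error on any site, and no test of a difference between the lists was possible: a site listed once is a site that passed the authors' calls in 1 pool only. Intervals given for shares are 95% Wilson intervals and cover counting error only.

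Promoter sequences at sites that carry the findings are shown first, to let the E-boxes of shared and list-specific sites be compared. Each is 60 bases of the RefSeq promoter (GRCm38.p6), upstream of the gene start, written 5′ to 3′ along the gene's strand, with the E-box nearest to the centre of the TFE3 site in capitals. The first 5 genes had a site in both lists, Ccdc126 in Control only, and the last 2 in Control+1c only.
Rragc, chr4:123917294-123917353, plus strand: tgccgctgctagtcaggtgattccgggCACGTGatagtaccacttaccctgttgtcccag
Naglu, chr11:101069994-101070053, plus strand: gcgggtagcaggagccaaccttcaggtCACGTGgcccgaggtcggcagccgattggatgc
Mcoln1, chr8:3500447-3500506, plus strand: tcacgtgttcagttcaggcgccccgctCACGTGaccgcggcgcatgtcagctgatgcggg
Fnip1, chr11:54438077-54438136, plus strand: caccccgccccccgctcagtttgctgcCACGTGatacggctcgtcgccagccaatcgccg
Insig1, chr5:28071284-28071343, plus strand: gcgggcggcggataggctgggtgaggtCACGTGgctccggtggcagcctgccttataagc
Ccdc126, chr6:49319181-49319240, plus strand: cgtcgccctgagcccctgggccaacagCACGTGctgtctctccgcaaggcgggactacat
Eps15l1, chr8:72421541-72421600, minus strand: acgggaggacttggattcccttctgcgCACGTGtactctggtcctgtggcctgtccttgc
Slc38a7, chr8:95853493-95853552, minus strand: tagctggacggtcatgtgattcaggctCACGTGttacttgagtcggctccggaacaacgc

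Counted from the gene start, the E-box began at -112 in Rragc, -73 in Naglu, -45 in Mcoln1, -75 in Fnip1, -66 in Ccdc126 and -99 in Eps15l1. In these 6 genes its centre lay 0 to 18 bases from the centre of the TFE3 site, measured with starts from 2 builds. In Slc38a7 the distance was 78 bases, still inside the 166 bp site, and in Insig1 it was 110 bases, outside the 174 bp site. The window of Mcoln1 held the longer palindrome TCACGTGA, which contains CACGTG.

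Of the sites, 5552 were in both lists, 4095 in Control only and 5275 in Control+1c only. The shared sites were 57.6% of the Control list (interval 56.6 to 58.5%) and 51.3% of the Control+1c list (50.3 to 52.2%). Sites listed in Control only made up 27.4% of all 14922, and those in Control+1c only 35.4%. For scale, LiFKO and LiFKO+1c shared 81.3% of the LiFKO list and 63.9% of the longer LiFKO+1c list. Control on the FPC diet and Control on chow, which differ in diet, virus dose and processing, shared 44.3% and 37.5% of their lists.

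The strongest sites were the ones held in common. Each list gives a score per site, the authors' Stat value from the HOMER peak caller, whose scaling is not stated, so sites were compared by their percentile within a list (100 for the highest). Of the 100 highest sites, 93 of the Control list and 96 of the Control+1c list were shared. When each list was cut by score into 10 bins of like size, the shared part fell, from the highest bin to the lowest, from 86.6% to 29.2% in Control and from 91.1% to 14.4% in Control+1c. The median percentile in Control was 61.8 for shared sites and 35.0 for sites in Control only. In Control+1c it was 67.8 for shared sites and 32.4 for those listed there only. The lists thus parted mainly among weak sites.

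**Figure D1:**
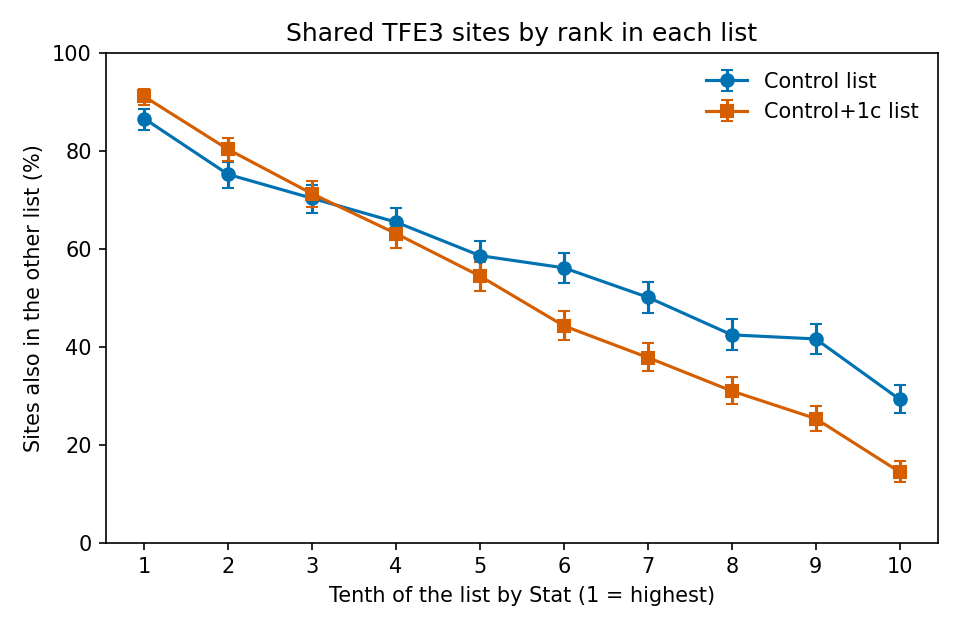
Percent of TFE3 sites that were also in the other list (y axis), for each of 10 bins of a list by score (x axis, 1 is the highest); bars are 95% Wilson intervals. Both lines fell steadily, from 86.6% to 29.2% in Control (circles) and from 91.1% to 14.4% in Control+1c (squares).

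Shared sites kept their place. Across the 5552 sites the scores of the 2 lists had a Spearman correlation of 0.848, a description across sites of 2 pools called against the same Tfe3KO library. The median distance between the centres was 22 bp, and 47.3% lay within 20 bp. Few list-specific sites were shifted copies of a site in the other list. Only 2.12% of the sites in Control only (87) and 1.76% of those in Control+1c only (93) had a centre within 500 bp of a centre in the other list.

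The 6 highest shared sites stood near genes of several functions. The site at Spg11 (chr2:121944090-121944264 in mm9, the build of all site positions below), 55 bp upstream of the start of the gene for spatacsin, a protein of lysosome reformation, had the highest score in both lists, 96.2 in Control and 76.3 in Control+1c. The site at Rragc, the gene for RagC, 98 bp upstream of its start (chr4:123594504-123594678), scored 92.4 and 66.4. At Mrpl45, coding for a protein of the mitochondrial ribosome, the scores were 84.1 and 72.9. The site 9620 bp from Hmox1, the heme-degrading enzyme, scored 77.7 and 70.6. At Dyrk1a, a protein kinase, they were 82.5 and 61.8, and at Atm, the kinase of the DNA damage response, 73.9 and 63.7. These 6 sites held ranks within the first 8 of both lists.

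**Figure D2:**
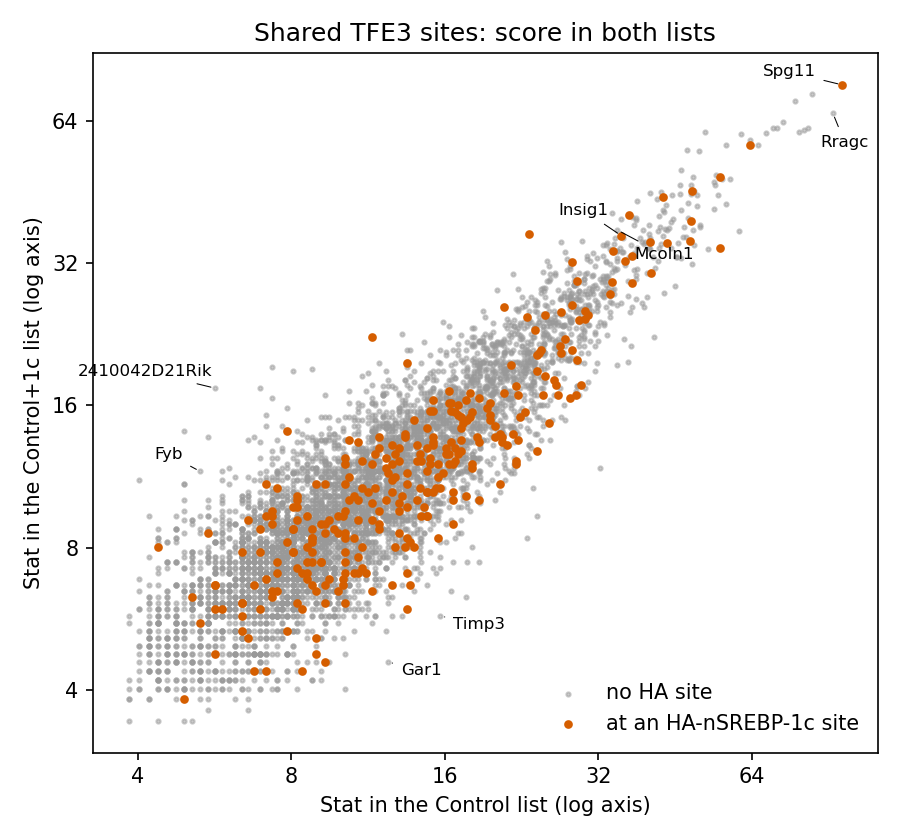
Score of each of the 5552 shared sites in the Control list (x axis) and the Control+1c list (y axis), both on log axes; orange points are the 295 sites at an HA-nSREBP-1c site and grey points are the others. Points lie along 1 band from weak sites to Spg11 at 96.2 and 76.3, and labelled sites off the band, such as Fyb and Timp3, are those whose ranks differed most or are named in the text.

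Some shared sites stood at different ranks in the 2 lists. The following were picked as the largest differences among sites in the upper 50% of at least 1 list, 5 in each direction, so their size is a description of 1 pool per group and not a change shown by replicates. Percentiles are taken here among the 5552 shared sites alone, since the lists differ in length. A site inside Fyb, an adaptor protein of immune cells, stood at percentile 5.30 in Control and 62.0 in Control+1c. The site nearest 2410042D21Rik stood at 7.29 and 84.6, and that nearest Comtd1 at 3.60 and 74.5. In the other direction, a site inside Timp3, an inhibitor of matrix proteases, stood at 74.7 and 8.47. A site 519 bp from Gar1, a protein of small nucleolar ribonucleoproteins, stood at 60.2 and 2.66.

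Few strong sites were in 1 list only. The highest in Control only was at Scaf1 (chr7:52271638-52271812), 8 bp inside the start, with a score of 55.6 and rank 21 of 9647. Its nearest Control+1c centre was 1510 bp away. Next were Zfp653 (49.6), Ccdc126 (47.2), Acot13, an acyl-CoA thioesterase (46.3), 1110004E09Rik (42.1) and Kpna3, a nuclear import receptor (41.9). In Control+1c only, the highest was at Eps15l1 (chr8:74945386-74945552), an endocytic adaptor, with a score of 43.5, followed by Ube2f, an enzyme that attaches NEDD8, at 41.2. Shkbp1 (38.4), Safb (36.4), Ccdc21 (33) and Gm6444 (30.3) came next. All 12 of these sites were also listed in LiFKO and in LiFKO+1c livers, and 10 of the 12 were listed in both chow groups. Each of these strong list-specific sites was therefore seen in more than 1 pool.

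The other peak lists separated the 3 classes. Of shared sites, 83.6% were also listed in LiFKO, 91.8% in LiFKO+1c, 52.4% in chow Control and 58.1% in chow LiFKO. Of the sites in Control only, 68.5%, 74.7%, 33.8% and 47.8% were found in the same 4 lists. Of the sites in Control+1c only, 49.2%, 62.0%, 16.9% and 33.2% were. Sites listed in none of the 4 were 5.12% of shared sites, 16.6% of those in Control only and 29.7% of those in Control+1c only. The sites listed in Control+1c only were thus the least often listed elsewhere, also in the LiFKO+1c livers that carried the same virus. Both list-specific classes scored below their own list. The median was 6.49 for Control+1c only sites in a list with median 7.82, and 7.68 for Control only sites in a list with median 9.33.

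**Figure D3:**
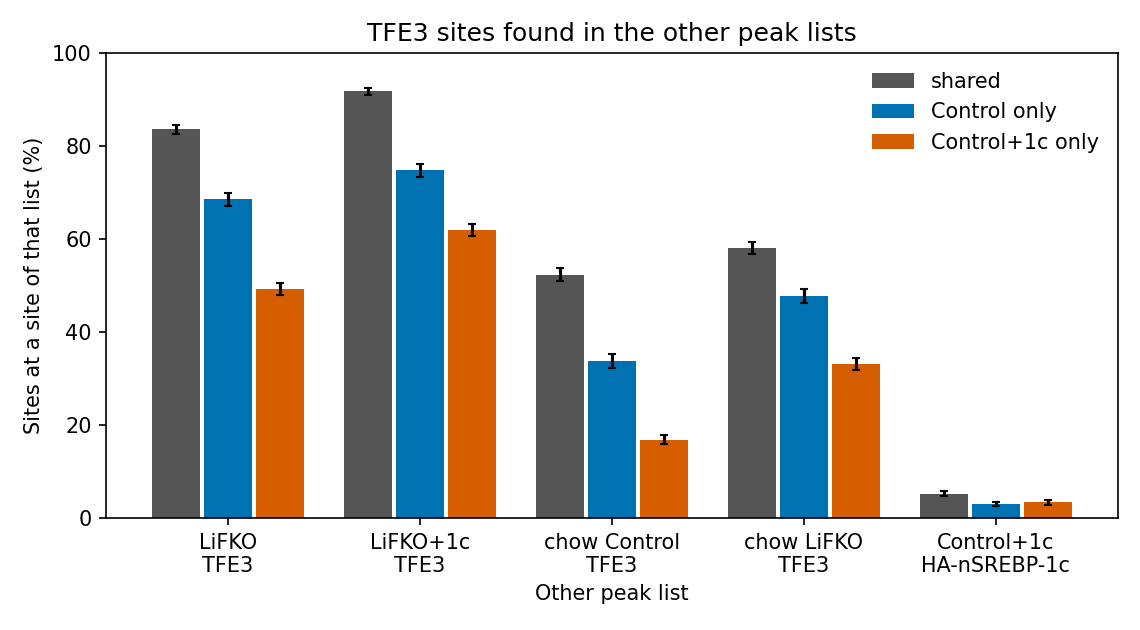
Percent of shared (grey), Control only (blue) and Control+1c only (orange) TFE3 sites that overlapped a site of each of 5 other peak lists; bars are 95% Wilson intervals. In the 4 TFE3 lists the order was shared, Control only, Control+1c only, and at HA-nSREBP-1c sites the shares were 5.31%, 3.03% and 3.39%.

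To see whether TFE3 sites appeared where SREBP-1c itself was bound, the classes were set against the HA ChIP list of Control+1c livers, which held 1702 sites. By the animal numbers in the headers, its pool came from the same livers as the TFE3 pool of Control+1c. HA-nSREBP-1c was at 5.31% of shared TFE3 sites (295, interval 4.75 to 5.93%), 3.03% of those in Control only (124, 2.55 to 3.60%) and 3.39% of those in Control+1c only (179, 2.94 to 3.92%). The shares in the 2 list-specific classes lay within each other's intervals. Counted from the HA sites, 24.4% lay at a Control TFE3 site (415, 22.4 to 26.5%) and 27.7% at a Control+1c TFE3 site (472, 25.7 to 29.9%). With the Control+1c list shortened to the length of the Control list, the second share was 26.5%, inside that interval. The other 1104 HA sites overlapped neither list.

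Within shared sites, those at HA sites did not gain rank. When percentiles were taken among the 5552 shared sites alone, the median change from Control to Control+1c was -3.03 for the 295 at HA sites and 0.21 for the other 5257. Of the 295, 34.9% gained rank (29.7 to 40.5%), and of the others 51.2% did (49.8 to 52.5%). The highest shared sites at an HA site were Spg11, 2400001E08Rik (63.6 and 56.9), Tmem41b, an endoplasmic reticulum lipid scramblase (55.4 and 48.7), Sc4mol, an enzyme of cholesterol synthesis (49.0 and 45.4), and Mapk6, an atypical MAP kinase (48.7 and 39.3).

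Sites of Control+1c only at an HA site were led by Ralb, a small GTPase, 55 bp upstream of its start (chr1:121401343-121401509), with a TFE3 score of 26.0 and an HA score of 11. The others in order were Kidins220 (20), Hebp1, a heme-binding protein (19.7), Gm4980 (18.1), Slc38a7, a lysosomal amino acid transporter (16), Mr1, an antigen-presenting molecule (15.1), Fam59a (14.5), Nkiras2 (14.3), Pkdcc (14.1) and Grb2, an adaptor of receptor tyrosine kinases (13.4). Of these 10, 9 were also listed in LiFKO livers without the SREBP-1c virus, and Mr1 was the exception. Sites of Control only at an HA site were led by Lss, lanosterol synthase of the cholesterol pathway, 49 bp upstream of its start (chr10:75994197-75994371). Its TFE3 score in Control was 27.8, percentile 96.1, and its HA score of 32.2 was above those of the 10 sites just named. The nearest Control+1c TFE3 centre was 499012 bp away.

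The authors' deposited table of 96 sites that differed between LiFKO+1c and LiFKO, all higher with SREBP-1c, gave a second view from other livers. Of the 96, 27 lay at a Control+1c TFE3 site and 5 at a Control site, or 28.1% and 5.21%. The 96 are sites of the LiFKO+1c list, and of that whole list 23.6% lay at a Control+1c site and 23.1% at a Control site. The share at Control+1c sites was thus near that of its list, and the share at Control sites was below it. By class, 22 were at sites of Control+1c only, 5 at shared sites and 0 at sites of Control only. Over the whole LiFKO+1c list the order differed: 3272 Control+1c only, 5098 shared and 3061 Control only sites lay at one of its sites. The 96 were selected as higher than in LiFKO, and 26 of them lay at a LiFKO site, where 63.9% of the LiFKO+1c list did. Of shared, Control only and Control+1c only sites, 83.6%, 68.5% and 49.2% lay at a LiFKO site. The class counts of the 96 are thus not independent of that selection, and no conclusion is drawn from them. HA-nSREBP-1c of Control+1c was at 51 of the 96 and at 16 of the 27. The share of the whole LiFKO+1c list at these HA sites was not counted. The HA list held 1702 sites and the LiFKO+1c list 35325, so most of the LiFKO+1c list lay at no HA site. In the authors' deposited table Mr1 had a log2 fold change of 2.2 with an adjusted p of 1.04e-05, and its site was in Control+1c only. The same held for Nkiras2 (1.74 in the authors' deposited table), Rdh11, a retinol dehydrogenase (1.61), Osbp, an oxysterol-binding protein (2.25), and Mbnl3 (6.97). The sites of Osbp and Mbnl3 were weak in Control+1c (percentiles 21.4 and 15.1) and lay at 30349 and -37396 from the start. Scap, the escort protein of SREBPs, had a site of this class too, with 2.19 in the authors' deposited table. It lay at 29255 from the start and at no HA site. Of the 27, the lowest adjusted p in the authors' deposited table was that of Fbxo30 (2.64e-08, log2 fold change 2.71). Its site was in Control+1c only, at 24572 from the start and at no HA site. The 22 sites are 0.417% of the Control+1c only class, so the table touched a small part of it. The 96 were called in LiFKO pools, and the Control and LiFKO lists share their Tfe3KO background library.

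Gene groups were described by a TFE3 site within 1 kb of a gene start, which was known for 9913 genes. A Control site lay there in 18.3% of them (1818) and a Control+1c site in 18.3% (1813), from lists of 9647 and 10827 sites. An HA site lay there in 1.92% (190). Lysosomal hydrolases, the digestive enzymes of the lysosome, were at 18 of 23 in each list, and 17 of the 23 had a shared site. Among them Naglu scored 46.3 in Control and 46.8 in Control+1c, Ctsz 41.0 and 33, Neu1 38.0 and 30.2, Hexa 30.7 and 28.4, and Ctsd 27.1 and 26.9. Idua had a site in Control only, and Smpd1, acid sphingomyelinase, in Control+1c only. Genes of the lysosomal membrane and its proton pump had a Control site at 12 of 20 and a Control+1c site at 10. Mcoln1, a lysosomal calcium channel, scored 34.9 and 37.6, and Atp6v0d1, a pump subunit, 39.1 and 37.6. Npc2, a lysosomal cholesterol carrier, and Scarb2 had a site in Control only.

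The feedback circuit around folliculin was held as well. Flcn itself, 796 bp inside the start, scored 33.5 and 30, and a second site at Flcn 20.5 and 19.3. Fnip1 scored 37.1 and 34.9, Fnip2 42.8 and 36.6, and Tsc1, a brake on mTORC1, 40.2 and 38.5. With Rragc, these were the 5 of 18 genes of the folliculin, Rag and mTORC1 list with a shared site at the start, and Sesn1 had a site in Control only. In the autophagy list 7 of 15 genes had a site in each list, all shared, such as Uvrag at 42.2 and 40.3. Sqstm1, an autophagy receptor, had a shared site at -2409 from its start with 34.0 and 40.8. Of 12 circadian clock genes, 8 had a Control site and 7 a Control+1c site. Nr1d1, the clock repressor REV-ERB alpha, scored 29.1 and 26.9. Per1 had 2 list-specific sites with centres 229 bp apart. Of 14 genes of mitochondrial regulation and fatty acid oxidation, 1 had a site in each list, Acadl.

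**Figure D4:**
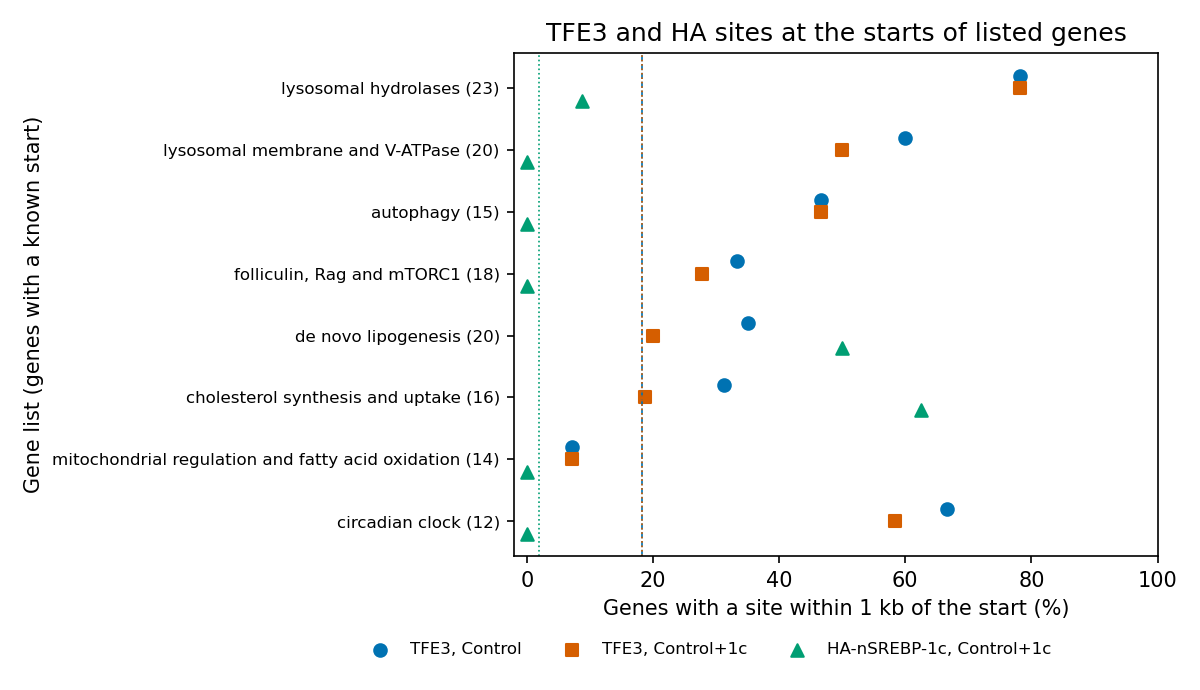
Percent of the genes of 8 lists (y axis, with the number of genes whose start is known) that had a site within 1 kb of the start: TFE3 in Control (circles), TFE3 in Control+1c (squares), HA-nSREBP-1c in Control+1c (triangles). Vertical lines mark all 9913 genes, 18.3% for both TFE3 lists and 1.92% for HA. All lists but that of mitochondrial regulation and fatty acid oxidation lay right of the TFE3 lines, the cholesterol list only just in Control+1c. Among the genes of these 8 lists HA sites were mostly at lipid genes, but 170 of all 190 genes with an HA site at the start were outside the lipid lists.

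Lipid genes carried HA-nSREBP-1c, and TFE3 sites listed in Control+1c only were few at their starts. None of the 36 genes of the 2 lipid lists had such a site as its only kind, where 5.90% of all 9913 genes did, so the 36 do not stand apart by this count. HA sites were at 2 of the 23 hydrolase starts, Ctsf and Scpep1, and at 0 of those of the lysosomal membrane, autophagy, folliculin, mitochondrial and clock lists. An HA site lay at the start of 10 of 20 genes of de novo lipogenesis and 10 of 16 of cholesterol synthesis and uptake. TFE3 was at 7 of the 20 lipogenic genes in Control and at 4 in Control+1c, and at 5 and 3 of the 16 cholesterol genes. Fads2, Lpin1, Tkt, Insig1, Mvd and Sc5d had a shared site. Insig1, which retains SREBPs in the endoplasmic reticulum, scored 35.5 and 36.6, and Mvd, of the mevalonate pathway, 34.2 and 34.0, both at HA sites. Elovl5 (18.1), Pnpla3 (8.23), Srebf1, the gene of SREBP-1 itself (11.3), Acat2 and Lss had a site at the start in Control only. At Fasn, fatty acid synthase, a Control only site 6 bp upstream (10.6) lay at an HA site, and a Control+1c only site 238 bp upstream (7.63) did not. Their centres were 232 bp apart. Sites in Control+1c only that lay at an HA site also stood just outside the 1 kb window of 3 lipid genes. These were at -1885 from the start of Lpin1, a phosphatidate phosphatase (TFE3 score 6.87, HA score 11.7), at 1065 inside Pnpla3, a lipid droplet lipase (4.39 and 5.56), and at -3410 from Insig2, a relative of Insig1 (7.82 and 4.59). Srebf1 had another site in Control only, inside the gene (15.7), also at an HA site. Counted over the whole gene and 5 kb on each side, a TFE3 site lay at 15 of 24 lipogenic genes in Control and 11 in Control+1c, and at 13 and 8 of 24 cholesterol genes, where all 13815 genes stood at 36.5% and 37.8%. Acaca, acetyl-CoA carboxylase, had a shared site at an HA site inside the gene with 20.9 and 17.0.

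Among the 190 genes with an HA site at the start, TFE3 was at 35.8% in Control (68) and 36.8% in Control+1c (70). For the 20 that belong to the 2 lipid lists the counts were 8 and 5. For the other 170 they were 60 and 65. These are small counts from 1 pool per group, and 2 or 3 genes make the difference at the starts of each lipid list. Of 8 hepatocyte genes Ass1, an enzyme of the urea cycle, had a site in each list (9.15 and 7.44). Of the markers of other liver cells, 2 of 19 had a site of either list at the start (10.5%), where 24.2% of all 9913 genes did, a count too small to set them apart. Cd68, a macrophage marker, scored 13.5 and 19.8, and Hgf, a stellate cell gene, had a site in Control+1c only (6.11).

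Position, CACGTG and TCACGTGA also ran in the order of the classes, while TCACNCCAC, CACATG and TGACCT did not. For CACGTG the intervals of both list-specific classes overlapped, and for TCACGTGA those of all 3 classes did. A gene start lay within 1 kb of 19.8% of shared sites, 15.4% of Control only and 11.7% of Control+1c only sites. The site was over 10 kb from any gene of the expression table in 26.7%, 29.0% and 33.5%. Motifs were searched on both strands in the RefSeq promoter from 250 bases before the start to 50 after, in genes whose TFE3 site had its centre there. CACGTG was in 25.5% of 809 promoters with a shared site (22.6 to 28.6%), 17.8% of 388 with a Control only site (14.3 to 21.9%) and 14.5% of 365 with a Control+1c only site (11.3 to 18.5%). It was in 10.3% of all 9913 promoters and in 7.91% of 6722 without a TFE3 site within 5 kb. TCACGTGA was in 6.43% (4.94 to 8.33%), 4.38% (2.75 to 6.90%) and 3.01% (1.69 to 5.32%) of the classes and 2.00% of all. The sterol-type sequence TCACNCCAC was in 1.73%, 1.80% and 1.37% of the classes, 1.13% of all promoters and 9.32% of 118 with an HA site. CACATG was in 10.3%, 10.8% and 8.22%, and 8.75% of all, and TGACCT in 14%, 12.6% and 15.6%, and 12.6% of all. The sequences printed above were picked to hold CACGTG, so that they share these letters is no result, and most promoters of all 3 classes hold no such match in this window.

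RNA from other mice of the study was used to ask how genes at these sites behaved when Flcn was deleted and when TFE3 was deleted too. No RNA libraries of the SREBP-1c virus groups were among the files used here. The libraries were from chow-fed Control and LiFKO livers, and from LiFKO and double knockout (DKO: Flcn lox/lox; Tfe3-/Y with AAV8-TBG-Cre) livers on AMLN diet. Each group had 3 libraries, virus at 1.5e11 GC, 17 to 18.5 weeks on its diet and no food for the last 4 to 6 hours. Nothing states that the 3 came from separate mice, so p-values measure the spread between libraries. Values are the authors' normalized log2 levels, and calls are by limma with an adjusted p under 0.05. Whole liver holds several cell types, and fewer cells of a type and less RNA per cell cannot be told apart. Alb, the albumin gene of hepatocytes, was at 20.10 to 21.47 in the 15 libraries, and the cholangiocyte marker Krt19 at 5.04 to 6.35.

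Flcn was at 11.33, 11.55 and 11.44 in chow Control and at 10.55, 10.14 and 10.53 in chow LiFKO, and it fell by 1.03 (SE 0.17, limma adjusted p 0.000394). In the AMLN groups it was at 10.25, 10.56 and 10.43 in LiFKO and at 9.12, 9.45 and 9.91 in the libraries labelled DKO. Tfe3 was at 9.92, 10.02 and 10.07 in AMLN LiFKO and at 10.20, 9.88 and 9.89 in the libraries labelled DKO, with a difference of -0.01 (SE 0.12, limma adjusted p 0.967). The Tfe3 level thus did not check that label, and which part of the transcript the deletion removes is not given in the sources used here.

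In chow LiFKO against Control, 12.5% of 13815 genes rose (1723) and 13.2% fell (1822). Of the 9913 genes with a known start, 12.8% rose. Of the 1184 with a shared site within 1 kb of the start, 21.7% rose (257), of the 590 with a Control only site 13.9% (82) and of the 585 with a Control+1c only site 11.8% (69). Without a site 11.3% of 7510 rose. In the libraries labelled DKO against LiFKO, 5.05% of all genes rose (698) and 5.97% fell (825). There 14.4% of genes with a shared site fell (170), 6.78% of those with a Control only site (40), 6.84% of those with a Control+1c only site (40), 4.78% of those without and 6.19% of all with a known start. So genes with a shared site were above the background in both comparisons, while both list-specific classes were near it. Their levels differed too: the median log2 level in chow Control was 10.54 with a shared site, 10.38 with a Control only site, 10.12 with a Control+1c only site and 9.80 without, and the part of this in the counts was not tested. With 1 library left out the DKO calls ranged from 991 to 1280 genes. Leaving out LiFKO replicate 3 gave 999 and leaving out DKO replicate 2 gave 991, both more than 1.5 times below the 1523 of all libraries.

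**Figure D5:**
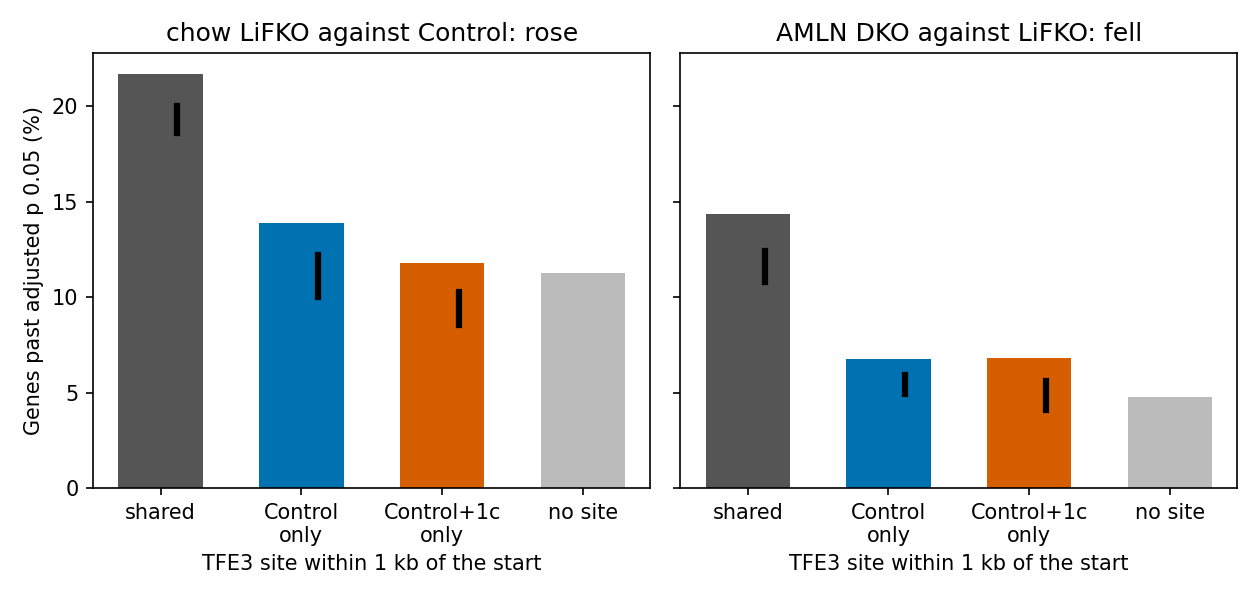
Percent of genes past a limma adjusted p of 0.05 (y axis), by the class of the TFE3 site within 1 kb of the start: genes that rose in chow LiFKO against Control (left) and fell in the libraries labelled DKO against LiFKO on AMLN diet (right). Black lines are the range when 1 library was left out, all below the bars. Shared sites stood highest in both, at 21.7% and 14.4%.

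Of 30 hydrolases 24 rose and 0 fell in chow LiFKO (median change 0.74), and 22 fell and 0 rose in the libraries labelled DKO (median -0.61). Of 26 genes of the lysosomal membrane and pump 22 rose (median 0.67) and then 23 fell (median -0.69). Of 24 lipogenic genes 5 rose and 5 fell in chow (median 0.09), and 12 rose and 2 fell in the libraries labelled DKO (median 0.64). Of 24 genes of cholesterol synthesis and uptake 1 rose and 11 fell in chow (median -0.55), and 9 rose and 0 fell in the libraries labelled DKO (median 0.54). Over the genes with a known start the medians were -0.06 and 0.02.

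Some cell type markers moved in the same comparisons, and their part in these counts was not tested. None of the 8 stellate cell markers and none of the 6 cholangiocyte markers passed in either comparison. Beside the counts below, 12.5% of all genes rose and 13.2% fell in chow, and 5.05% rose and 5.97% fell in the libraries labelled DKO. Of 9 Kupffer cell and macrophage markers 1 rose and 0 fell in chow LiFKO (median -0.26), and 0 rose and 2 fell in the libraries labelled DKO (median -0.66). Cd68, itself a lysosomal membrane protein, rose by 2.22 in chow and fell by 1.48 in the libraries labelled DKO, where Vsig4, a Kupffer cell receptor, fell by 0.76. The call of Vsig4 was lost in 3 of 6 fits with 1 library left out. The summed level of the 9 on the log2 scale was 14.18 to 15.24 in chow Control and 14.39 to 14.80 in chow LiFKO, and 14.94 to 15.73 in AMLN LiFKO and 14.43 to 15.26 in those labelled DKO, so the groups overlapped. That of 8 endothelial markers was 13.73 to 14.09 and 14.11 to 14.33 in chow, and 14.35 to 14.46 and 14.03 to 14.21 in AMLN, with no overlap. That of 10 hepatocyte markers was 22.16 to 22.19 and 21.37 to 21.81 in chow, and 21.49 to 21.58 and 22.11 to 22.15 in AMLN, again with no overlap. Taken one by one, 2 of these 10 rose and 2 fell in chow (median -0.11), and 1 rose and 0 fell in those labelled DKO (median 0.11). Of the 8 endothelial markers 2 rose and 0 fell in chow (median -0.02), and 0 rose and 1 fell in those labelled DKO (median -0.12). The sums weigh the highest markers most: over the 15 libraries the median level was 21.47 for Alb and 18.32 for Apoa1, the next highest. The median of Alb was also its highest value, so many libraries held the same top level of Alb. The gap between the hepatocyte sums is therefore no measure of hepatocyte content.

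Of the genes nearest the 6 highest shared sites, 4 rose in chow LiFKO and fell in the libraries labelled DKO, namely Spg11, Rragc, Hmox1 and Atm. The DKO call of Spg11 was lost in 4 of 6 fits with 1 library left out. Mrpl45 rose by 0.68 in chow and differed by -0.33 in DKO (limma adjusted p 0.0844), and Dyrk1a passed in neither. Of the genes with a shared site at the start, both calls were made in 12 of 17 hydrolases, 8 of 9 genes of the lysosomal membrane and pump, 4 of 7 autophagy genes and 4 of 5 of the folliculin list, in which Flcn is the deleted gene. They were made in 11.1% of all 1184 genes with a shared site and in 4.55% of all 9913. Uvrag and Sqstm1 passed in neither comparison, and of 6 clock genes with a shared site 3 fell in chow (Dbp, Nr1d1 and Tef) and 0 passed in DKO.

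The values of 7 genes with both calls follow, as examples chosen for that pattern. Mcoln1 was at 11.23, 11.09 and 11.08 in chow Control and at 12.36, 12.24 and 12.30 in chow LiFKO, with no overlap, a rise of 1.16 (SE 0.09, limma adjusted p 6e-07). On AMLN diet it was at 12.09, 12.15 and 12.14 in LiFKO and at 10.83, 11.02 and 11.20 in those labelled DKO, and fell by 1.11 (SE 0.09, limma adjusted p 3.91e-06). Fnip2 was at 11.86, 11.94 and 11.91 in chow Control and at 13.00, 12.95 and 13.45 in LiFKO, a rise of 1.23 (SE 0.18). It fell by 1.94 (SE 0.18) in the libraries labelled DKO. Rragc rose by 0.74 and fell by 0.89, Fnip1 rose by 0.68 and fell by 0.86, and Tsc1 rose by 0.76 and fell by 1.07. Naglu rose by 0.71 and fell by 0.76, and Hmox1 rose by 1.80 and fell by 1.38. These 7 kept both calls with every library left out in turn.

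Of the genes nearest the 6 highest sites of each list-specific class, 1 rose in chow. In Control only this was Acot13, which rose by 0.79 (SE 0.11, limma adjusted p 0.000174) and fell by 0.54 in the libraries labelled DKO (limma adjusted p 0.00708). In Control+1c only it was Shkbp1, which rose by 0.60 (limma adjusted p 0.0226), a call lost in 4 of 6 fits with 1 library left out. The genes at the highest site of each class did not pass in chow. Scaf1 was at 11.37, 11.44 and 11.35 in chow Control and at 11.35, 11.35 and 11.24 in LiFKO, a difference of -0.08 (limma adjusted p 0.535). Eps15l1 was at 9.75, 9.83 and 9.84 and at 9.76, 9.86 and 9.80, a difference of 0.00 (limma adjusted p 0.990). Ralb, at the highest Control+1c only site that was also an HA site, was at 9.17, 9.24 and 9.09 in Control and at 9.69, 10.09 and 10.05 in LiFKO, and rose by 0.77 (SE 0.14, limma adjusted p 0.000976). Of the 5 lipid genes with a Control only site at the start, 2 rose in the libraries labelled DKO and 3 did not pass. There 12 of 24 lipogenic and 9 of 24 cholesterol genes rose, and 5.31% of all 9913 genes with a known start. The 2 of 5 thus do not stand apart from the lipid lists. Srebf1 was at 13.29, 13.62 and 13.75 in AMLN LiFKO and at 14.72, 14.74 and 14.78 in those labelled DKO, a rise of 1.19 (SE 0.18, limma adjusted p 0.000842). Elovl5 rose by 1.35 (SE 0.26, limma adjusted p 0.00392). Pnpla3 differed by 1.79 (SE 0.70, limma adjusted p 0.120), Acat2 by 0.20 (SE 0.12, limma adjusted p 0.334) and Lss by 0.33 (SE 0.19, limma adjusted p 0.311). Fasn, with a site of each list at the start, rose by 1.43 (SE 0.24, limma adjusted p 0.00163).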

How the data were processed

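Peak lists came as HOMER mergePeaks output, 1 pooled list per group, with the score (Stat) of each site as deposited. Per the file headers sites passed both an input and a background ChIP (names ending fc4). Per the submitters' processing notes the ChIP tools were HOMER 4.4, bedtools, Bowtie2 2.2.6 and SAMtools 0.1.19 after Trimmomatic 0.36 (mm9). RNA values were deposited as log2 levels whose 15 columns have the same quartiles, with no counts, so depth is unknown. The same notes name STAR 2.6.0c, featureCounts and limma. The authors' deposited table of differing sites gives log2 fold changes and adjusted p-values. Its 6 tag count columns were not used.

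Here sites were joined at 1 bp of overlap. The peak lists hold no annotation, so gene starts were taken from the mm9 gene spans of the expression table with strands from RefSeq's promoter table (9913 of 13815 genes, 71.8%). Against 52 distances in the authors' deposited table, 36 agreed within 100 bp and 43 within 1000 bp. A shared site at a start outranked list-specific ones, and genes with both list-specific kinds were set apart. limma 3.58.1 (R 4.3.3) fitted 5 group means over 15 libraries, with Benjamini-Hochberg adjustment, and was tested on simulated data. Same-numbered chow libraries deviated from their group means together (correlations 0.113, 0.17 and 0.237). In the AMLN groups they did not (-0.055, -0.079 and -0.085). All calls above came from the fit without pairs, and the replicate numbers entered only the replicate block given below. Genes named are the highest sites of each class, the largest rank changes, sites at HA sites, members of 13 gene lists and key genes of both pathways. Members and lists were chosen with earlier results of these data known. Alternatives were other overlap rules, list lengths, promoter windows, a replicate block and leaving out each library.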

Additional observations from a re-analysis of the deposited data

How the results depend on the processing

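The share of the Control list that was shared, 57.6%, was 55.6% when the overlap had to be 50% of the shorter site, 56.3% with centres within 100 bp, 59.0% with a gap of up to 500 bp, 64.9% in the upper 50% of both lists by score and 62.3% with the same number of top sites. For Control+1c, 51.3% became 49.5%, 50.2%, 52.7%, 57.8% and 62.3%. Sites in Control only numbered 1692 in the upper 50% and 1817 with equal numbers, and in Control+1c only 2282 and 1817, by construction from fewer sites. With the upper 50% of the HA list, 3.15%, 1.51% and 1.76% of shared, Control only and Control+1c only sites were at HA sites, and 27.5% and 31.4% of those HA sites were at Control and Control+1c TFE3 sites. Within 5 kb of a start lay 26.8%, 22.7% and 16.8%. Shared sites had the highest share at HA sites at 1 bp of overlap between TFE3 and HA sites, at 50%, with a 500 bp gap and in the upper 50% of the HA list, and the highest share at starts within both 1 kb and 5 kb. These shares were not taken with the other rules for joining the TFE3 lists.

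The replicate block changed neither RNA comparison by over 1.5 times in the fit of all 15 libraries (3409 genes in chow, 1412 in AMLN). The comparison of HA sites with TFE3 lists of equal length and the fits of 2 groups with the block were added after seeing the data. The latter gave 3763 genes in chow and 765 in AMLN. There 9.46%, 4.41% and 2.74% of genes with a shared, Control only and Control+1c only site fell, beside 469 of all 13815 genes. The AMLN numbers do not pair the samples, and the cause was not tested. With 1 library left out, calls ranged from 2695 to 2908 in chow and 991 to 1280 in AMLN. Genes that rose in chow then ranged from 18.6 to 20% (shared), 10 to 12.2% (Control only) and 8.55 to 10.3% (Control+1c only), and those that fell in AMLN from 10.8 to 12.4%, 4.92 to 5.93% and 4.10 to 5.64%. Of all 13815 genes, 1385 to 1478 rose in chow and 590 to 703 fell in AMLN in the same fits. No paired analysis of the peak lists was possible because each is 1 pooled call. A motif search within 100 bp of site centres was not run, since no mm9 genome was used here. Lists without depth or replicates limit every statement on single sites.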
